A study of Xenopus laevis with 4 samples.

Results

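The sites of 3 genes of the frog egg were examined in RNA bisulfite sequencing (BS-seq) data of Xenopus laevis: h1foo, which encodes the oocyte linker histone, npm2, which encodes nucleoplasmin 2, and ccnb5, which encodes cyclin B5. All rows of the deposited site lists whose gene name, without the suffix .L or .S, is one of these names were taken, which gave 5 of the 16233 sites listed at stage 0 and 3 of the 45 sites listed at stage 25. The genes were chosen by the site calls themselves, as oocyte-type genes with 5-methylcytosine (m5C) sites called at both stages. Their listing, level and coverage across the stages are therefore given as a description. Each stage was profiled with 2 libraries of polyadenylated RNA from pools of about 200 wild-type embryos, without treatment or genetic change. The paper calls such replicates technical in its main text and biological in a supplementary legend. Whether the 2 libraries of a stage came from separate pools is thus not known. Stage 0 embryos carry mainly mRNAs made by the mother, whereas stage 25 embryos also transcribe their own genome. Both stage 25 libraries have XT at the start of their titles where the stage 0 libraries have XL, but as X. laevis is named as their organism, they were treated as that species. In the deposited lists both replicates of a stage are combined, so no spread between replicates can be given for any value, and all intervals cover counting error only.

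In BS-seq, unmethylated cytosine is read as T and m5C as C. The level of a site is the share of C among its C and T reads, and its coverage is the number of these reads. X. laevis has an L and an S subgenome, and the suffix of a gene name tells which copy is meant. The frog egg stores proteins and mRNAs for the first cell divisions, which take place with little transcription. The oocyte linker histone, also known as B4 or H1M, binds the DNA between nucleosomes in eggs and early frog embryos before somatic H1 histones take over. Nucleoplasmin 2 is a histone chaperone that stores H2A and H2B in the egg and helps to unpack sperm chromatin after fertilization. B-type cyclins bind and activate the kinase Cdk1, which drives cells into M phase. In mRNA, m5C is deposited by the methyltransferases NSUN2 and NSUN6.

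At stage 0, the 5 sites lay in 4 gene copies, all on the plus strand. h1foo.L (gene5019 in the lists) had 1 site, at position 126173682 of chromosome 4L. h1foo.S (gene12214) had 1 site, at position 104534249 of chromosome 4S. npm2.L (gene6306) had 1 site, at position 122308429 of chromosome 3L. In ccnb5.L (gene18525), a first site was listed at position 89235849 and a second at position 89236408 of chromosome 3L, 559 nt apart on the genome. For npm2.S and ccnb5.S, 0 sites were listed at either stage. All positions refer to the v9.2 assembly and may be 1 nt off, since the base from which the authors counted is unknown. Whether a site lies in an exon, the coding sequence or a UTR was not analysed here.

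For the oocyte linker histone, h1foo.L had 8789 C reads among 22726 reads at stage 0. Its level was thus 38.7% (95% Wilson interval 38.0% to 39.3%), higher than that of 76.0% of the stage 0 sites. The coverage ranked 21st among the 16233 sites, where the median coverage was 146 reads. At stage 25, the same cytosine had 9 C reads among 21 reads, a level of 42.9% (24.5% to 63.5%). The stage 25 interval holds the whole stage 0 interval. Coverage was 1082 times lower at stage 25, and at 21 reads it was the lowest of the 45 listed sites and 1 read above the minimum of 20 reads at which sites were called. The site of h1foo.L thus stood just inside the stage 25 list. At 21 combined reads, the 2 libraries cannot both have reached 20, and how the reads were divided between them is not known.

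For nucleoplasmin 2, npm2.L had 2293 C reads among 5449 reads at stage 0, a level of 42.1% (40.8% to 43.4%). At stage 25, 19 of 72 reads were C, which is 26.4% (17.6% to 37.6%). These intervals did not overlap, and the level at stage 25 minus that at stage 0 was -15.7 percentage points (95% interval -24.6 to -4.43). Coverage was 75.7 times lower. Coverage thus differed less between the stages for npm2.L than for h1foo.L.

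For cyclin B5, the second site of ccnb5.L had 13766 C reads among 23320 reads at stage 0, a level of 59.0% (58.4% to 59.7%). This was the highest level among the 5 sites, and 88.2% of the stage 0 sites had a lower one. At stage 25, 23 of 41 reads were C, a level of 56.1% (41.0% to 70.1%), which was the second highest of the 45 listed sites. The stage 25 interval again held the stage 0 interval, and coverage was 569 times lower. The first site of ccnb5.L had 2429 C reads among 15799 reads at stage 0, a level of 15.4% (14.8% to 15.9%), and was not listed at stage 25.

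**Figure D1:**
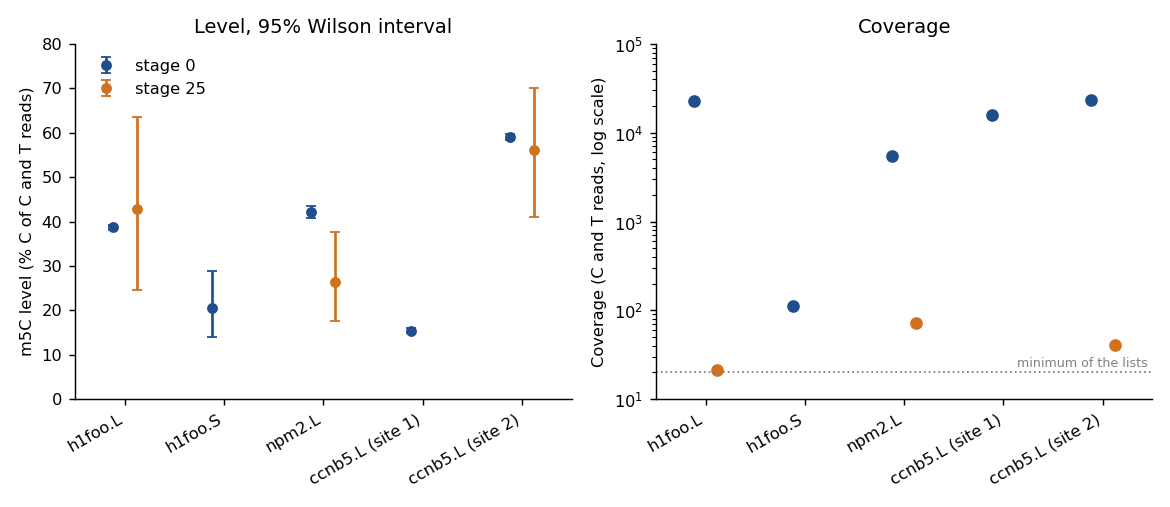
Level in percent with 95% Wilson intervals (left) and coverage in reads on a log scale (right) of each listed site of h1foo, npm2 and ccnb5 at stage 0 (blue) and stage 25 (orange); a missing orange point means that the site is not listed at stage 25. The stage 0 sites of the L copies have 5449 to 23320 reads, whereas the 3 stage 25 sites have 21 to 72 reads and wide intervals.

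In order of stage 0 level, the second site of ccnb5.L came first, followed by npm2.L, h1foo.L, h1foo.S and the first site of ccnb5.L. The Wilson intervals of neighbours in this order did not overlap, except that the interval of h1foo.S (14.1% to 28.9%) held that of the first site of ccnb5.L. At stage 25 the order was ccnb5.L, h1foo.L and npm2.L. There the intervals of neighbours overlapped, and only those of ccnb5.L and npm2.L were apart. The places of h1foo.L and npm2.L at stage 25 thus cannot be told apart at 21 and 72 reads.

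The 4 sites of the L copies were among the most deeply covered of the stage 0 list. Their coverage ranks were 19th and 32nd for the second and first site of ccnb5.L, 21st for h1foo.L and 176th for npm2.L. By the highest coverage of any site, ccnb5.L ranked 16th, h1foo.L 18th and npm2.L 129th among the 7140 genes. The genes were chosen for sites listed at both stages, which favours sites with many reads, so these ranks are given as a description. Coverage at a cytosine depends, among other things, on the amount of its mRNA in the polyadenylated RNA and on how well the position can be sequenced and mapped. In pooled embryos, fewer cells that hold an mRNA and less of it per cell cannot be told apart. In levels the members were less extreme: the median level of all 16233 stage 0 sites was 21.1%, and the 5 sites lay on either side of it, from 15.4% to 59.0%.

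**Figure D2:**
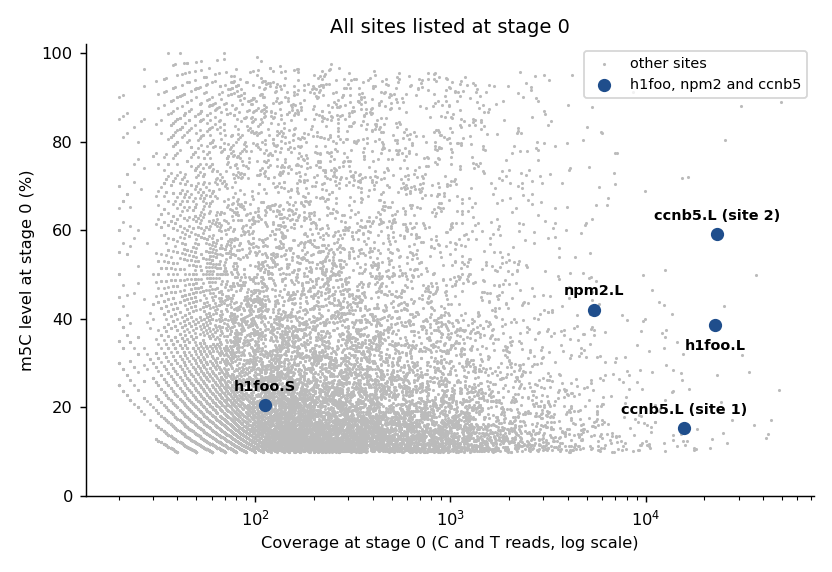
Level in percent against coverage in reads (log scale) of the 16233 sites listed at stage 0, with the 5 sites of h1foo, npm2 and ccnb5 in blue and all others in grey. The L copies lie at the right edge, at 5449 to 23320 reads, and h1foo.S lies near the median coverage of 146 reads.

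How far 2 sites of the same mRNA can differ was examined in ccnb5.L, the only one of these copies with more than 1 listed site. The level of the first site minus that of the second was -43.7 percentage points (95% interval -44.5 to -42.8). In Fisher's exact test of C and T reads (two-sided), fitted on all 22085 pairs of stage 0 sites within a gene copy with Benjamini-Hochberg adjustment, this pair passed the threshold, with a p-value below the smallest number the software can hold. Of all such pairs, 58.0% passed. Its size was larger than that of 83.5% of all pairs, whose median difference was 13.9 points. Among the 4377 pairs no more than 1000 nt apart, it was larger than that of 82.6%. The coverage of the 2 ccnb5.L sites differed by a ratio of 1.48, close to the median ratio of 1.43 of the pairs within 1000 nt. At stage 25, the site with the higher stage 0 level was the one listed. The stage 25 coverage of the first site is unknown, and a lower level needs more reads to be called. Whether its level changed was not tested.

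Next, the gene copies were compared. h1foo was the only one of the 3 genes with listed sites in both copies. In h1foo.S, 23 of 112 reads were C at stage 0, a level of 20.5%, and the site was not listed at stage 25. The level of h1foo.L was 18.1 percentage points higher (95% interval 9.72 to 24.6 points). This difference passed Fisher's exact test, fitted on all 7838 pairs of an L and an S site of 1 gene name (Benjamini-Hochberg adjusted p = 0.000133). Among these pairs, 59.8% passed, and the median difference was 14.6 points, so that of h1foo was larger than 56.7% of them. The positions of the L and S sites were not matched by sequence here. They may be different cytosines of the mRNA, and the test does not tell a difference between copies from a difference between positions.

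In coverage, the copies of h1foo stood farther apart than those of any other gene name with stage 0 sites in both copies. Names with sites in only the L copy, such as npm2 and ccnb5, could not be ranked. The site of h1foo.L had 203 times the reads of the site of h1foo.S, and these sites may be different positions of the mRNA. Among the 1031 gene names with stage 0 sites in both copies, the ratio of the highest coverage in L to the highest in S had a median of 1.11, and its quartiles were 0.474 and 2.71. The ratio of h1foo ranked first. The gene h1foo was chosen for a site in h1foo.L listed at both stages, which favours sites with many reads. Its rank is thus given as a description. The next was that of tgs1, a gene named after its values were seen, at 147 from 6319 and 43 reads. Reads were first placed by unique alignment to the genome, and how many reads of one copy could be assigned to the other, or to neither, was not tested. At the other end of the order was psap, also named after its values were seen, with 52 reads in L and 3204 in S.

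**Figure D3:**
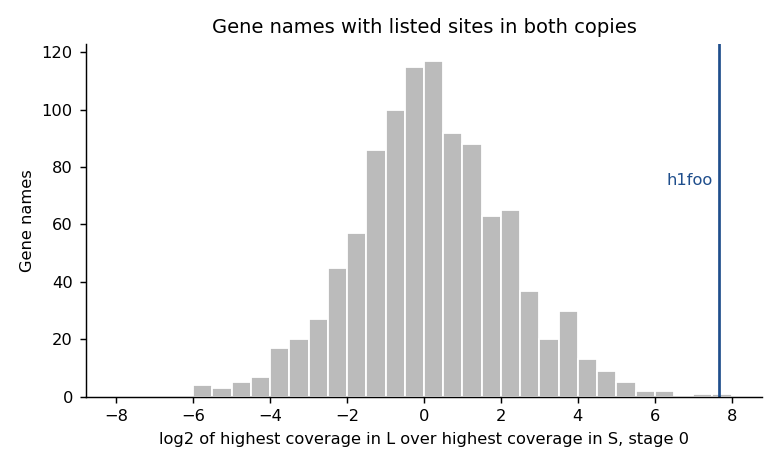
Number of gene names by the log2 ratio of the highest stage 0 coverage in the L copy to that in the S copy, over the 1031 names with listed sites in both copies. The line marks h1foo, whose ratio of 203 is the highest, at the right end of the distribution.

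The stages were then compared at the 36 sites listed at both, of which 3 belonged to h1foo.L, npm2.L and ccnb5.L. When C and T reads were tested by Fisher's exact test, adjusted by Benjamini-Hochberg across these 36 sites, the level was lower at stage 25 for 25 of them (69.4%), and for 1 of the 3, that of npm2.L. Since the genes were chosen for being listed at both stages, nothing is read from this count. For ccnb5.L, the level at stage 25 minus that at stage 0 was -2.93 percentage points (95% interval -18.0 to 11.1). For h1foo.L, this difference was 4.18 points (-14.2 to 24.8). At 41 and 21 reads these intervals are wide, and they hold both falls and rises in level. The smallest change that the test could call at such reads was not worked out per site.

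In the size of its coverage ratio, stage 0 over stage 25, h1foo.L ranked first of the 36 sites, ccnb5.L 3rd and npm2.L 6th. At the 33 sites of other genes, the median coverage was 293 reads at stage 0 and 100 reads at stage 25, and the median ratio was 3.48. A site needs at least 20 reads at stage 25 to be listed, so only sites with many stage 0 reads can have a large ratio. In stage 0 coverage, ccnb5.L ranked 2nd, h1foo.L 3rd and npm2.L 7th of the 36 sites. The ranks of the ratios are thus bound to stage 0 coverage, and nothing is read from them. Coverage was not scaled by the size of the libraries, so these ratios hold any difference in sequencing depth between the stages, which is the same for all sites. The level at stage 25 divided by that at stage 0 was 1.11 for h1foo.L, 0.95 for ccnb5.L and 0.627 for npm2.L. These level ratios ranked 4th, 5th and 10th of 36 from the highest. For the 33 other sites, the level ratio had a median of 0.397 and ranged from 0.140 to 1.33. A site is listed only with enough C reads, and the lowest number at stage 25 was 5. Low levels could therefore not be listed at very few reads, as for h1foo.L (21 reads). At 41 reads, the stage 25 coverage of ccnb5.L, a site in macrod2.S was still listed at 14.6%. The ranks of the level ratios are thus not comparable between sites of few and of many stage 25 reads.

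The sites whose change between the stages was most like that of the members were found by the distance on 2 axes, the log2 ratio of coverage and the level difference in units of 10 percentage points. This was done for each member against the 33 sites of other genes listed at both stages, each with 1 combined value per stage, and the other members were left out. Nearest to h1foo.L was a site in LOC108709196 on chromosome 2S, at a distance of 0.469, followed by top1.2.S at 1.27. For LOC108709196, coverage was 36796 reads at stage 0 and 44 at stage 25, and the level was 49.8% and 56.8%. The same sites were nearest to ccnb5.L, with top1.2.S at 0.939 and LOC108709196 at 1.14. The site in top1.2.S, a name for a DNA topoisomerase I gene, had 14422 and 32 reads and a level of 34.8% and 40.6%. None of the 33 sites was as close to npm2.L, for which macrod2.S was nearest at 1.54. The site of macrod2.S is placed on chromosome 5L, in spite of the suffix of its gene name. Next came ddx25.L, which encodes a DEAD-box RNA helicase of germ cells, at 2.47. In ddx25.L, coverage was 5288 and 130 reads, and the level was 62.6% and 23.8%.

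**Figure D4:**
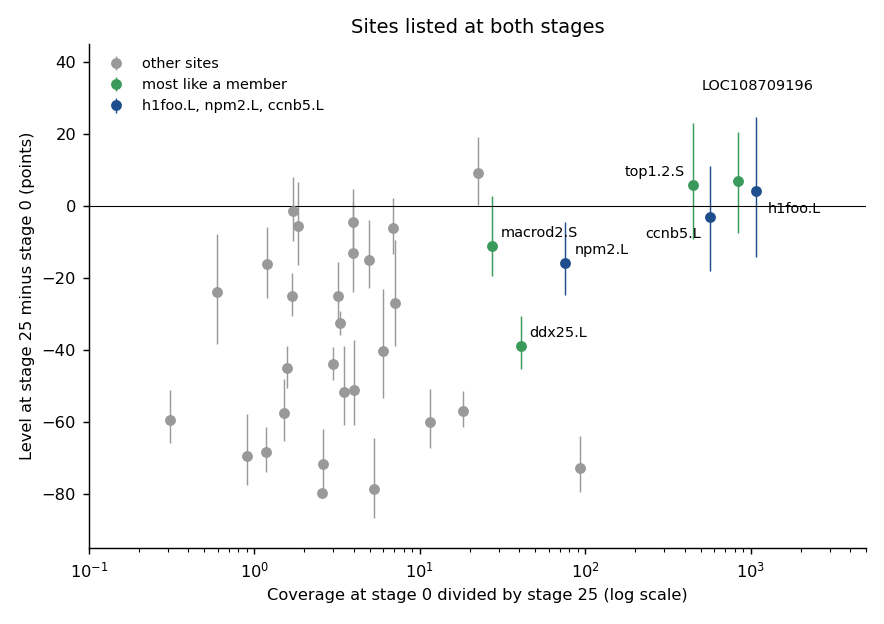
Level at stage 25 minus stage 0 in percentage points against the coverage at stage 0 divided by that at stage 25 (log scale) for the 36 sites listed at both stages, with 95% intervals that cover counting error only. Members are blue, and the sites most like them are green. h1foo.L and ccnb5.L lie near 0 at the right edge, with coverage 1082 and 569 times lower, and npm2.L lies at -15.7 points.

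Other genes of the same families were looked up by name. Here and in the wider lists below, names were matched exactly apart from .L or .S. A name with an added number, as in top1.2.S, would thus not be found. Among linker histones, the somatic-type gene h1f0.L had 1 stage 0 site at 58.5% on 53 reads. The gene h1fx.S, which encodes H1.X, had 2 sites, at 26.0% on 146 reads and 81.8% on 99 reads. The linker histone sites outside h1foo.L thus had at most 146 reads, against 22726 in h1foo.L. Among the nucleoplasmin genes, npm3.S had 1 site at 42.0% on 376 reads (37.1% to 47.1%), and 0 sites were listed for npm1. The interval of npm3.S held that of npm2.L at stage 0. Among the other B-type cyclins, 0 sites were listed for ccnb1, ccnb3 and ccnb4, whereas cyclin B2 had sites in both copies. In ccnb2.L, a site at position 89246879 of chromosome 3L had a level of 42.8% on 25228 reads (42.2% to 43.4%), and another at position 89243727 had 12.8% on 415 reads. In ccnb2.S, 1 site had 41.1% on 13732 reads (40.3% to 41.9%). High coverage at stage 0 was thus found for cyclin B2 as well as for ccnb5.L. The cyclin B2 sites were not listed at stage 25, as was the case for all but 36 of the 16233 stage 0 sites. The gene ccnb5 was chosen for its listing at both stages.

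Over the wider lists, 3 of 17 linker histone names, 16 of 27 names of histone chaperones, 20 of 31 names of cyclins and the M phase kinase module and 21 of 41 names of oocyte and germ plasm genes had a site at stage 0. Some names are older or newer symbols of the same gene, so these are names and not genes. By current RefSeq symbols, 16 of 26 chaperone names, 19 of 28 cyclin and M phase names and 20 of 36 oocyte and germ plasm names had a stage 0 site, beside 4313 of 14652 protein-coding names in all (29.4%). How abundant the mRNAs of these names were was not taken into account, and no test was made. The lists were also chosen with earlier results of these data known, and the chaperone names include the member npm2. The shares are therefore given as a description only. For the linker histone list, 0 of 4 RefSeq names had a stage 0 site. As h1foo and its relatives have older names in the site lists, this share cannot be compared with the others. The median stage 0 level was 24.1% over 31 chaperone sites and 24.0% over 62 cyclin and M phase sites. It was 22.7% over 70 oocyte and germ plasm sites, beside 21.1% over all sites. Over the 5 linker histone sites the median was 38.7%, which is the level of h1foo.L itself. At stage 25, each list had 1 site, in h1foo.L, npm2.L, ccnb5.L and ddx25.L. The first 3 lists hold these genes by construction. By number of stage 0 sites, the leading genes were h1fx.S and h1f0.L, atrx.L and rbbp4.S, cdk2.L and mastl.L, and grip2.L and lsm14b.S, in the order of the lists, with ties settled by name order. The site number of h1f0.L (1 site) was the same as that of h1foo.L and h1foo.S, and that of lsm14b.S (5 sites) was the same as that of spire1.S. Among them, cdk2.L, which encodes a kinase of the cell cycle, had 8 sites with a highest level of 93.2%. The gene atrx.L, which encodes a chromatin remodeller that acts with the chaperone DAXX, had 5 sites with a highest level of 66.7%. At stage 25, 0 sites were listed in these 8 leading genes. Only 41 genes had a listed site at that stage, beside 7140 at stage 0, so nothing is read from this count.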

How the data were processed

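RNA BS-seq was done on 4 libraries, 2 at each stage, which were grouped by the stage in their labels. After trimming with Trimmomatic and cutadapt, the authors used HISAT2 to place reads on the C-to-T converted X. laevis v9.2 genome, and Bowtie2 to place the rest on the converted transcriptome. They removed reads with many remaining C bases, which lowers the background and also removes reads with several true m5C sites, and kept sites of at least 20 reads and 10% level. The deposited coverage is a count of C and T reads per site, not normalized, and the deposited level is a fraction and was multiplied to percent. The p-value deposited with each call was not used. Further filters of the authors covered the number of C reads, the signal ratio, conversion-resistant genes, a binomial test and presence in the replicates. A cytosine that is not listed may thus be unmethylated, below a minimum, removed by a filter or not covered. The product of coverage and level was whole, within 0.0001 reads, for all 16233 and 45 sites, and was used as the number of C reads.

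A site was taken as listed at both stages when its chromosome, position and strand agreed. Fisher's exact test (two-sided) on C and T reads was fitted on the whole list and adjusted by Benjamini-Hochberg, at a threshold of 0.05. As replicates are combined, these tests cover counting error only, and without molecular identifiers 2 reads can come from 1 molecule. Intervals are 95% Wilson intervals, and for differences Newcombe intervals. The members and gene lists were chosen with earlier results of these data known. The genes named were the members, for each member site at both stages the 2 most similar sites of other genes, and from each list the genes with a stage 25 site and the 2 with the most stage 0 sites, ties being settled by name order. The sister genes npm3, ccnb2 and their like were named in addition. The gene h1foo is h1-8 in the RefSeq gene list of assembly v10.1, from which only names were taken. It matched h1foo.S, npm2.L and npm2.S by symbol or synonym, h1foo.L through the symbol of its other copy and ccnb5.L not at all. Alternatives were coverage minimum values of 50 and 100 reads and level minimum values of 20% and 30%. Tests were run with scipy 1.17.1 in Python 3.11.15, tables were read with pandas 2.3.3 and numpy 2.4.6, and plots were drawn with matplotlib 3.10.9.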

Additional observations from a re-analysis of the deposited data

How the results depend on the processing

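No paired analysis was possible because replicates are combined in the deposited lists, and leaving out a replicate was not possible either. At stage 0, 3 of the 5 sites had a level of at least 30%. At stage 25, 1 of the 3 sites, that of npm2.L, had at least 50 reads and 0 had at least 100. Of the sites listed at both stages, 13 of 15 with at least 100 reads and 10 of 16 with a level of at least 20% were lower at stage 25, where fewer sites were tested. The minimum values were applied at both stages. Sites that fell below a level of 20% at stage 25 were thus left out before falls were counted, which lowers that share by construction. The number of differing pairs within a gene copy was 8137 of 11883 at 100 reads and 3548 of 5895 at a level of 20%, and that of L and S pairs was 2910 of 4065 and 1453 of 2274, again with fewer pairs tested. The calls for npm2.L, for the ccnb5.L pair and for h1foo.L against h1foo.S stayed on their side of the threshold wherever their sites passed the minimum. At a minimum of 100 reads the 3 stage 25 sites drop out, and at a level of 20% the first site of ccnb5.L does.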

Other observations

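The sites of ccnb5.L and ccnb2.L, both of B-type cyclin genes, lay close together on the plus strand of chromosome 3L. From the second site of ccnb5.L, the nearest listed site of another gene on the same strand was that of ccnb2.L at position 89243727, 7319 nt away. For npm2.L the nearest such site was 56004 nt away, for h1foo.L 77593 nt and for h1foo.S 914474 nt. This was seen after the values were known and is given as a description.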
